A study of Mus musculus with 28 samples.

Results

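The genes described are 41 interferon-stimulated genes, taken by symbol from the 23393 gene symbols that both deposited count tables share. They comprise 29 genes of the type I response, 10 GTPases induced by interferon gamma, and Irf1 and Cxcl10, which interferon gamma also induces strongly. The livers came from 28 mice (129svj, 11 to 13 months old) in 4 groups of 7: wild type (WT) and SIRT6 heterozygote (HZ) animals, each given vehicle or WY-14643 (WY). SIRT6 is a nuclear NAD-dependent deacylase, and the labels describe neither the deleted part of the gene nor the sex of the mice. Gavage was with carboxymethylcellulose at 0.5%, alone or carrying 50 mg/kg of WY, a drug-like ligand that activates PPARα, and tissue was collected after 12 h. PPARα is the receptor that switches on fatty acid oxidation in hepatocytes.

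Interferons are secreted when cells sense foreign nucleic acid. Type I interferons act through a receptor whose kinases activate a transcription factor complex, which holds STAT2 and IRF9 and binds the interferon-stimulated response element (ISRE) in target promoters. Interferon gamma acts through its own receptor and the gamma-activated site (GAS) in promoters, and it raises GTPases that attack vacuoles holding pathogens. Hepatocytes, Kupffer cells and sinusoidal endothelium all carry interferon receptors. In whole liver, fewer cells of a type and less RNA per cell cannot be told apart.

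Promoters of 31 of the 41 members were found in a RefSeq-derived table (GRCm38.p6, 250 bases before to 50 after each start site). The ISRE core was searched on both strands as GAAA, any 2 bases, and GAAA again. It was present for 20 of these 31 genes (64.5%), against 3.99% of 27025 genes of the table. The GAS, searched as TTCNNNGAA, which reads as itself on the other strand, was present for 9 of 31 (29%), against 9.55%. Both were present for 6 of 31 (19.4%), against 0.614%. Among the GTPases, 7 of 8 held the ISRE core and 4 of 8 held the GAS, and those 4 (Gbp7, Igtp, Irgm2 and Tgtp1) held both. Among type I members, 12 of 21 held the ISRE core. The following sites, read on the strand of the motif with 5 flanking bases, show the core that recurs in type I genes and in GTPases. Capitals mark the ISRE core, or for the second line of Igtp and Irgm2 and the only line of Irf1 the GAS.
Ifit1, chr19:34640785-34640794: gactgGAAAGTGAAActgaa
Ifit3, chr19:34583373-34583382: aagagGAAAGTGAAActtac
Isg15, chr4:156200881-156200890: aaaagGAAACCGAAAcagaa
Ifih1, chr2:62646214-62646223: gaatcGAAACAGAAAccgat
Stat2, chr10:128270276-128270285: gaaagGAAACTGAAAccagg
Gbp2, chr3:142620604-142620613: acagtGAAAGTGAAActaaa
Irgm1, chr11:48871435-48871444: aaataGAAACCGAAActgat
Igtp, chr11:58199522-58199531: gaactGAAACTGAAAgctgt
Igtp, chr11:58199511-58199519: gccatTTCTAGGAActgaa
Irgm2, chr11:58214913-58214922: gaactGAAACTGAAAgctgt
Irgm2, chr11:58214902-58214910: gccatTTCCAGGAActgaa
Irf1, chr11:53769924-53769932: ctgatTTCCCCGAAatgat

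The 250 bases before the start site are shown for 4 members that differ in how these motifs are arranged. All 4 genes lie on the plus strand of GRCm38, capitals mark every match to either motif, and an ISRE core on the minus strand reads as TTTC, 2 bases and TTTC. Ifit1 has a pair of ISRE cores, Gbp7 has a pair of GAS matches followed by an ISRE core, Irgm2 has the motifs side by side, and Apol9b has overlapping ISRE cores near the start site.
Ifit1, chr19:34640639-34640888: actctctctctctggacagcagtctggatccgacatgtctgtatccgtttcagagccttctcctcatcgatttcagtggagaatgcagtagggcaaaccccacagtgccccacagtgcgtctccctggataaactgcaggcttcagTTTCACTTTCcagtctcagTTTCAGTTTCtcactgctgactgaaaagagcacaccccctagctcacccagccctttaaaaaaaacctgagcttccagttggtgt
Gbp7, chr3:142530086-142530335: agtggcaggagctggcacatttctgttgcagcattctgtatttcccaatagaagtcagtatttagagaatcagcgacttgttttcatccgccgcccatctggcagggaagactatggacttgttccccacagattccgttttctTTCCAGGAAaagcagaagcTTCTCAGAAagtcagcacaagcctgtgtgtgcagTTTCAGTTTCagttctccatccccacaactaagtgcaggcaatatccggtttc
Irgm2, chr11:58214727-58214976: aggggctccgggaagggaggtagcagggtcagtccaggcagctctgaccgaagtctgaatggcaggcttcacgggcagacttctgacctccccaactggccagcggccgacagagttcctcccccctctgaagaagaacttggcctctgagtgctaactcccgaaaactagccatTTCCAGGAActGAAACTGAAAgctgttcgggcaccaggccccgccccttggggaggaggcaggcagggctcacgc
Apol9b, chr15:77728822-77729071: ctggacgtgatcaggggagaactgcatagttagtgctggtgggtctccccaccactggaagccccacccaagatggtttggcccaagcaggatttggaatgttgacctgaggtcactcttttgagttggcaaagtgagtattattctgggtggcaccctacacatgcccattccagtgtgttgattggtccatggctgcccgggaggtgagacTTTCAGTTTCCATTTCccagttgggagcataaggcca
A match is a description of the sequence and no evidence of binding in these livers. The promoter windows of Apol9a and Apol9b share an unbroken run of 281 bases. Their transcripts were not compared, but reads of near copies can be hard to assign, so their values are uncertain. Igtp and Irgm2 share 61 bases around the motifs, and their annotated genes overlap by 7974 bases on the same strand of chromosome 11. Parp9 and Dtx3l overlap by 682 bases on opposite strands of chromosome 16. The sources used here do not say whether counting used strand, and the values of these pairs are uncertain as well.

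Depth was 15795201 to 20020078 gene counts per library, and 12607 genes passed the filter on low counts. The targeted gene, Sirt6, ranged from 1.91 to 3.53 counts per 1e6 scaled library counts (CPM) in WT with vehicle, and from 0.882 to 1.38 CPM in HZ. With WY these ranges were 2.27 to 4.18 CPM and 1.29 to 2.29 CPM. Summed markers of hepatocytes came to between 47370 and 114600 CPM in every library, those of Kupffer cells to between 308 and 943 CPM, and those of T and NK cells to between 1.39 and 6.97 CPM. No marker was at 0 in all libraries of a group. Of 12 textbook PPARα targets, 11 rose with WY in WT and 12 in HZ, against 27.4% and 29.3% of all genes. Vehicle and WY libraries were deposited in separate tables, and their animals carry separate number ranges (29 to 78 and 2 to 25), so the treatment and any difference in handling between these sets cannot be told apart.

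Of the 41 members, 40 passed the filter. Tgtp1, an immunity-related GTPase, did not, with 0 to 25 counts per library. Per kilobase of exon, the tested members spanned 3 orders of magnitude. Bst2, a membrane protein that tethers budding virus, was highest with a median of 99.95 CPM per kb over the 28 libraries. Iigp1, a GTPase that binds pathogen vacuoles, followed with 58.6. Ifi35 (13.5), Igtp (12.4), Dtx3l (10.5), Parp9 (10.3) and Stat2 (10.1) came next. At the other end, Ifi44 was at 0.307, Gbp6 at 0.278 and Mx1 at 0.0925 CPM per kb.

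Single animals stood apart in these genes, and results are therefore given with medians and with these animals left out where they matter. WT vehicle animal 76 was the highest of its group in 37 of the 40 tested members, among them all 29 type I members and 7 of 9 GTPases. HZ vehicle animal 38 was the highest in 21 members, and HZ WY animal 21 in 36. The mean log2 CPM over the 29 type I members was 4.68 in animal 76, against 2.75 to 3.35 in the other 6 WT vehicle animals. It was 3.87 in animal 38, against up to 3.68 in the rest of its group, and 3.66 in animal 21, against up to 3.06. In WT WY no animal stood apart, and the 7 values lay between 2.45 and 2.68.

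**Figure D1:**
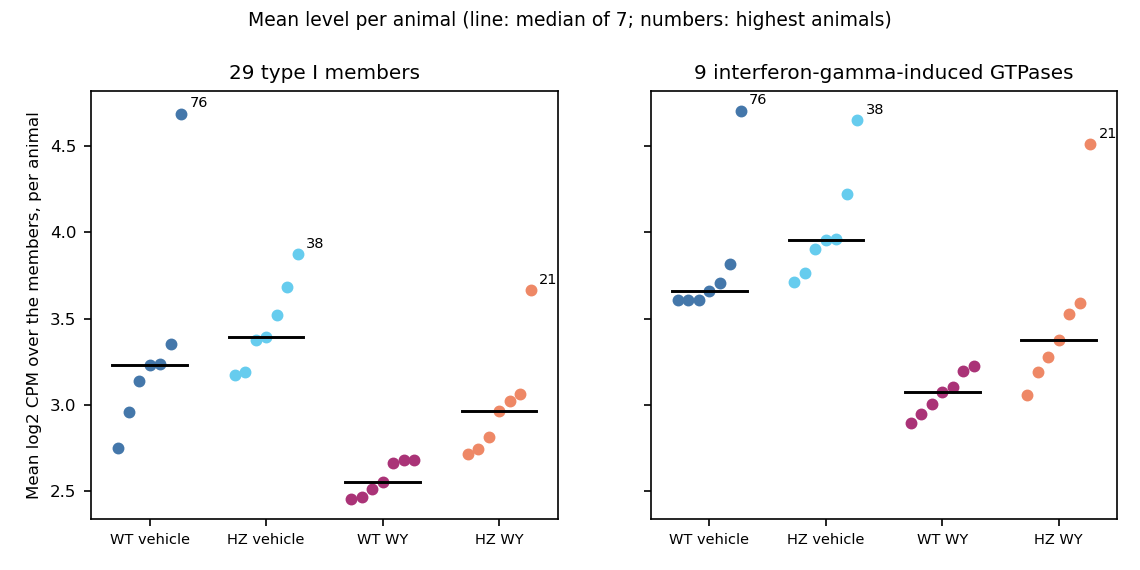
Mean log2 CPM per animal over the 29 type I members (left) and the 9 tested GTPases (right) by group, with each point an animal and lines at the median of 7. Animal 76 stands at 4.68 and 4.70, animal 38 at 3.87 and 4.65 and animal 21 at 3.66 and 4.51, while the WT WY animals lie within a narrow range.

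The 3 animals differed in which members were high. Against the median of the other 6 animals of its group, animal 76 was higher by a median of 1.39 log2 units over the type I members and 1.21 over the GTPases. In animals 38 and 21 the order was the other way round, with 0.48 and 0.67 for type I members and 0.58 and 1.02 for GTPases. Irf7, the factor that amplifies transcription of type I interferons, was at 66.7 CPM in animal 76, against 7.62 to 13.7 in the other WT vehicle animals. Usp18, which removes ISG15 from proteins and dampens the type I receptor, was at 23.8 CPM in animal 76, against 1.63 to 3.99. In animal 21 Irf7 was raised as well, at 25.6 CPM against 5.12 to 17.1, and Usp18 was at 4.73, against 1.72 to 3.28. Among the GTPases animal 76 was the highest in all but Gbp2 and Ifi47. Gbp3 was at 11.1 CPM there, against 2.01 to 3.82. Gbp2, a guanylate-binding protein, was at 2.88 CPM in animal 76, within the 1.82 to 2.99 of its group. The same gene was at 6.496 CPM in animal 38, against 1.36 to 2.84, and at 8.88 in animal 21, against 0.905 to 2.73. Cxcl10, a chemokine for activated T cells, was at 5.48 CPM in animal 21, against 0.693 to 1.41, and at 2.32 in animal 76, where another animal reached 2.28. These differences between animals are descriptions of single libraries.

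Markers of immune and other cells differed among these animals. Animals 38 and 21 were the highest of their groups in dendritic, T and NK, and B and plasma cell markers, and animal 76 in Kupffer cell markers. Animals 38 and 21 were also the highest in stellate cell markers (412.9 and 384.5 CPM) and endothelial markers (373.5 and 328.9 CPM). Library 38 had 16606 genes detected, against 15158 to 15493 in the rest of its group. It also had the lowest limma quality weight of the 28 libraries (0.385). The summed 8 dendritic cell markers were 184 CPM in animal 38 (40.6 to 83.6 in the rest of its group) and 329 CPM in animal 21 (36.5 to 127). In animal 76 they were 32.0 CPM, the lowest of WT vehicle (40.9 to 84.5 in the others). H2-Aa and H2-Ab1 make up most of these sums and are class II genes that interferon gamma itself induces. The summed 11 T and NK cell markers were 6.97 CPM in animal 38 (1.53 to 3.52 in the others), 6.00 in animal 21 (1.67 to 4.11) and 2.55 in animal 76 (1.61 to 3.05). Kupffer cell markers summed to 554 CPM in animal 76 (406 to 489), 750 in animal 38 (405 to 855) and 848 in animal 21 (350 to 943). The part of these cells in the members' levels was not tested.

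**Figure D2:**
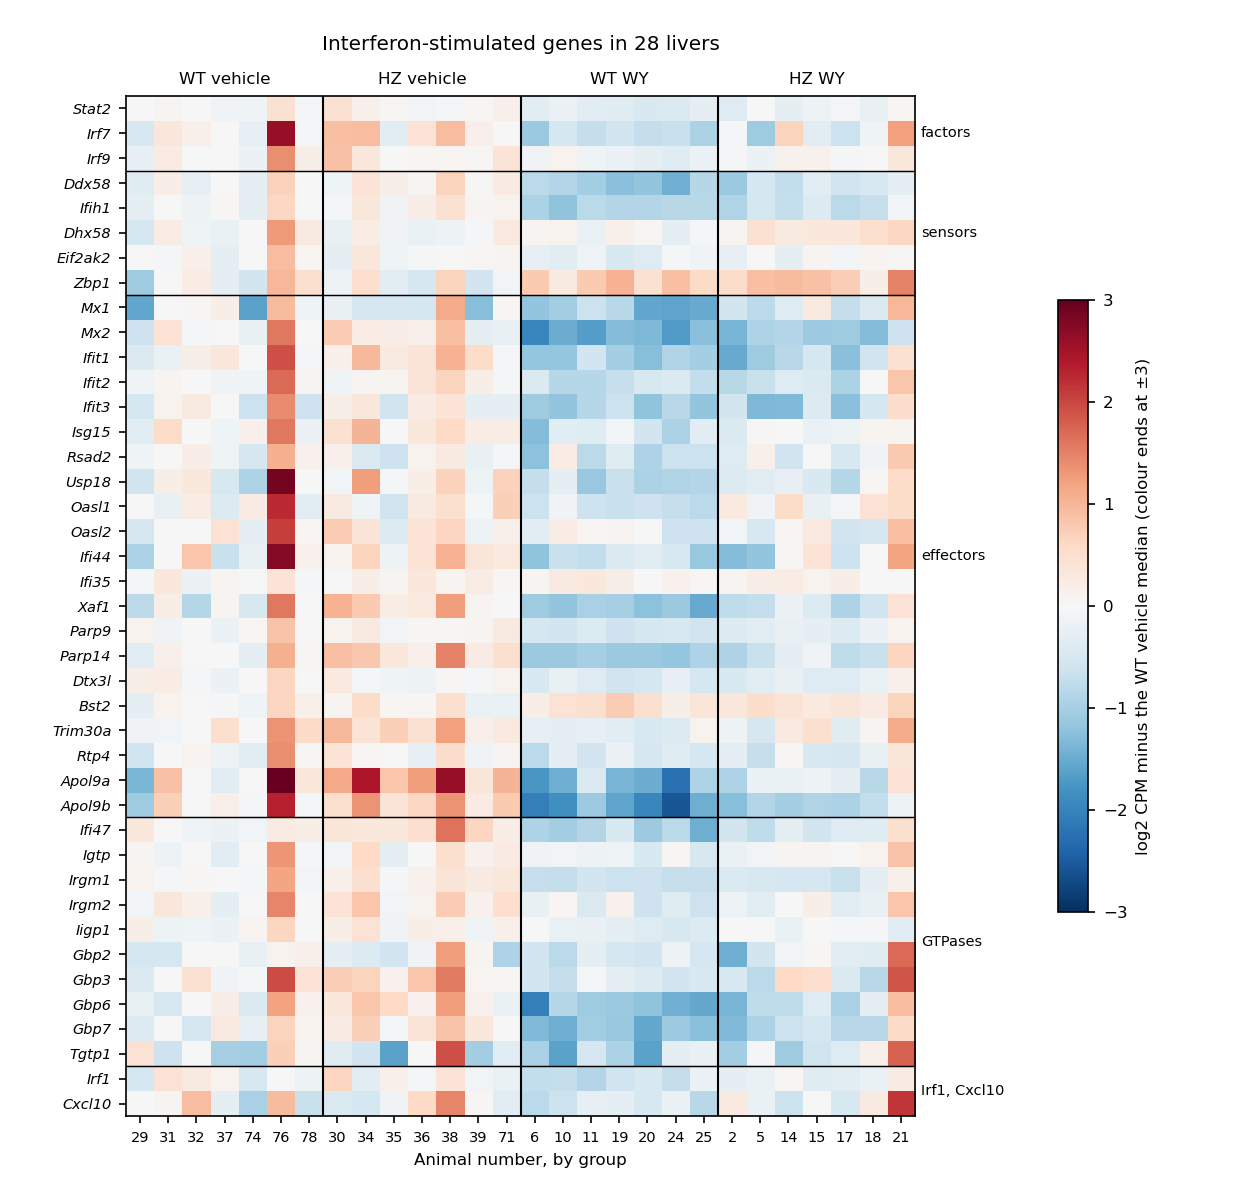
Log2 CPM of the 41 members (rows, by role) in 28 livers (columns, by group and animal number), as the difference from the WT vehicle median of the gene, with colour ending at ±3. WT vehicle 76, HZ vehicle 38 and HZ WY 21 are red in most rows, and most rows are blue in the WT WY block.

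The first question was whether the PPARα agonist changed these genes in WT liver. Most members were lower with WY: 32 of 40 fell, 2 rose (Bst2 and Zbp1) and 6 did not pass. Across all genes tested 54.1% were called, as 26.7% fell and 27.4% rose. Unadjusted p was below 0.05 for 34 of 40 members and 59.1% of all genes. In log2 fold change the members had a median of -0.92, and all genes tested -0.02. In 16 of 40 members all 7 WY animals lay below all 7 vehicle animals, as they did in 12.1% of all genes. Of the type I members 24 of 29 fell (median -0.94), and of the GTPases 7 of 9 (median -0.90). Taken as differences of group medians, which single animals hardly move, the median over the members was -0.65, and 35 of 40 were below 0. Without animals 76, 38 and 21, 28 of 39 members fell and 2 rose, with a median of -0.55. In that fit 26.9% of all genes fell and 27.5% rose. Without animal 76 alone 25 of 40 members fell and 2 rose, while 52.6% of all genes were called, 26.7% as higher. In the fit without animal 76 alone, Irf9, Ifi44, Mx1, Trim30a, Rtp4, Irgm2 and Gbp3 no longer passed. In the vehicle groups 3 of 7 WT animals and 1 of 7 HZ animals carry numbers from 71 to 78. A fit with a term for those numbers called 19 members lower and 2 higher. It called 51.2% of all genes, 26.1% as higher.

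Cell type markers and acute phase genes were read beside the 26.7% (WT) and 26.4% (HZ) of all genes that fell with WY. Only the hepatocyte markers were clearly above these shares in both genotypes. Of 8 hepatocyte markers 5 fell in WT (median log2 fold change -0.44) and 6 in HZ (median -0.52). Of 8 endothelial markers 3 fell in WT and 1 in HZ, and of 12 Kupffer cell markers 1 in WT and 0 in HZ. Of 10 acute phase genes 3 fell in WT (median -0.93) and 2 in HZ (median -0.67). Their part in the members' fall was not tested.

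A pair of RNA sensors gave the smallest p values. Ifih1 encodes MDA5, which senses long double-stranded RNA (GRCm38 chromosome 2, 62595798 to 62646255, minus strand). It was at 33.8 to 62.7 CPM in WT vehicle (median 41.0) and at 17.8 to 23.2 in WT WY (median 22.4). In HZ it was at 37.9 to 56.1 CPM with vehicle (median 44.2) and at 21.8 to 39.0 with WY (median 25.4). Every WT WY animal was below every WT vehicle animal, and in HZ only animal 21 reached into the vehicle range. Its log2 fold change was -0.94 ± 0.13 (SE) in WT, adjusted p = 6.07e-07, and -0.72 ± 0.13 in HZ, adjusted p = 1.95e-05. Ddx58 encodes RIG-I, which senses RNA with a 5′ triphosphate. Its range was 21.3 to 43.9 CPM in WT vehicle (median 27.3), 10.0 to 15.4 in WT WY (median 13.4), 25.0 to 43.5 in HZ vehicle (median 30.9) and 12.6 to 22.7 in HZ WY (median 18.9). Vehicle and WY animals did not overlap in either genotype. Ddx58 fell by 1.09 ± 0.15 on the log2 scale in WT, adjusted p = 9.16e-07, and by 0.80 ± 0.15 in HZ, adjusted p = 4.92e-05.

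The other 3 sensors gave mixed results. Eif2ak2, the kinase PKR that halts translation on double-stranded RNA, fell in WT (median 27.97 CPM with vehicle and 23.5 with WY, log2 fold change -0.41) and not in HZ (27.7 and 27.8). Dhx58 encodes LGP2, a regulator of the other RNA sensors. It was at 5.79 to 20.5 CPM in WT vehicle (median 8.42), 7.02 to 9.40 in WT WY (median 8.70), 7.20 to 10.3 in HZ vehicle (median 7.76) and 8.99 to 12.9 in HZ WY (median 10.6). It passed in neither genotype, with log2 fold changes of -0.25 ± 0.18 in WT (adjusted p = 0.233) and 0.40 ± 0.18 in HZ (adjusted p = 0.0557). Zbp1, a sensor of Z-form nucleic acid that triggers cell death, went up. Its levels were 1.26 to 5.64 CPM in WT vehicle (median 2.76), 3.33 to 5.81 in WT WY (median 4.80), 1.82 to 4.46 in HZ vehicle (median 2.45) and 3.12 to 7.90 in HZ WY (median 5.18). The groups overlapped in both genotypes. Zbp1 rose by 0.62 ± 0.25 in WT, adjusted p = 0.0386, and by 0.87 ± 0.25 in HZ, adjusted p = 0.00381. The call in WT was lost without any 1 of 8 animals, 4 of them vehicle and 4 WY, with adjusted p up to 0.0881.

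**Figure D3:**
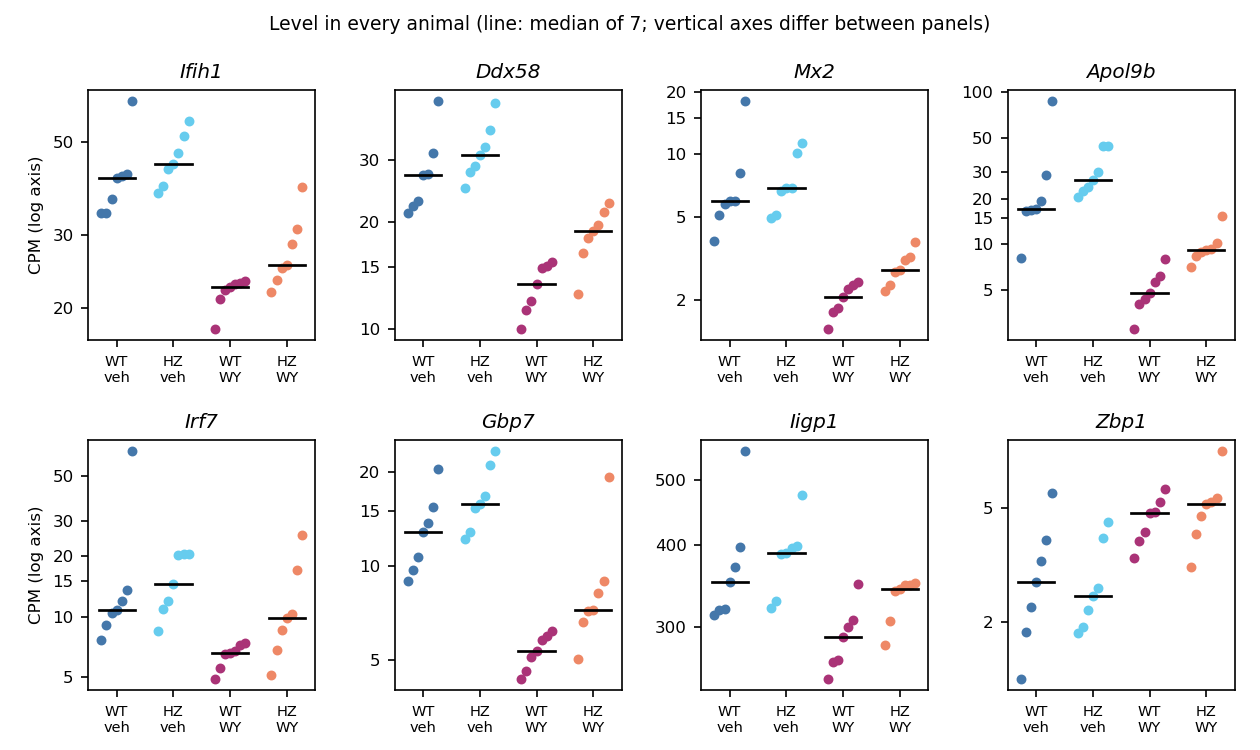
CPM of 8 members in every animal by group, on log axes that differ between panels, with lines at the median of 7. Ddx58, Mx2 and Apol9b show no overlap between vehicle and WY in either genotype, Irf7 shows 1 WT vehicle animal at 66.7 CPM, and Zbp1 is the only panel with higher medians under WY.

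Among the transcription factors, Stat2, a part of the type I complex, had the highest level. It was at 57.6 to 85.4 CPM in WT vehicle (median 62.6), 45.9 to 54.2 in WT WY (median 50.0), 59.5 to 86.0 in HZ vehicle (median 65.6) and 47.9 to 64.9 in HZ WY (median 56.1). WT groups did not overlap, and HZ groups did. Stat2 fell by 0.39 in WT and 0.26 in HZ on the log2 scale. Irf7 had medians of 10.8 CPM in WT vehicle and 6.56 in WT WY, and of 14.5 and 9.88 in HZ. It fell in WT (log2 fold change -1.54), a value that was -0.72 without animal 76, and did not pass in HZ. Irf9, the DNA-binding part of the type I complex, had medians of 22.6 and 20.1 CPM in WT and of 23.7 and 22.3 in HZ, and its log2 fold change of -0.46 in WT was -0.16 without animal 76. The call for Irf9 was lost without any 1 of 8 animals.

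Antiviral effectors made up the largest group, and 18 of 21 fell in WT with a median log2 fold change of -1.21, or -0.66 as differences of group medians. Mx2, a dynamin-like GTPase that blocks viral replication, was at 3.84 to 18.0 CPM in WT vehicle (median 5.96), 1.46 to 2.45 in WT WY (median 2.06), 4.94 to 11.3 in HZ vehicle (median 6.87) and 2.21 to 3.81 in HZ WY (median 2.79). No vehicle animal was as low as any WY animal of its genotype. The log2 fold change was -1.89 ± 0.27 in WT, adjusted p = 1.25e-06, and -1.36 ± 0.26 in HZ, adjusted p = 5.79e-05. Its neighbour on chromosome 16, Mx1, was close to the detection limit, with medians of 0.551, 0.182, 0.355 and 0.376 CPM in WT vehicle, WT WY, HZ vehicle and HZ WY.

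Apol9b, an apolipoprotein L, showed a still larger fall. It was at 8.196 to 87.3 CPM in WT vehicle (median 17.2), 2.80 to 8.08 in WT WY (median 4.76), 20.6 to 44.2 in HZ vehicle (median 26.5) and 7.07 to 15.5 in HZ WY (median 9.22). Treatment groups did not overlap in either genotype. The log2 fold change was -2.44 ± 0.39 in WT, adjusted p = 1.13e-05, and -1.63 ± 0.37 in HZ, adjusted p = 0.00056. Its near copy Apol9a had medians of 4.32 and 1.48 CPM in WT and 9.60 and 3.76 in HZ, and fell in both genotypes. The WT log2 fold change of Apol9a was -2.81 with all animals and -1.42 without animal 76, which was at 55.7 CPM.

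Members that modify proteins with ADP-ribose and ubiquitin changed by smaller but regular amounts. Parp9, which works with the ubiquitin ligase Dtx3l, was at 49.1 to 100.4 CPM in WT vehicle (median 55.7), 36.0 to 41.6 in WT WY (median 38.5), 53.1 to 67.5 in HZ vehicle (median 58.7) and 42.1 to 60.2 in HZ WY (median 45.5). The WT groups did not overlap. Parp9 fell by 0.68 ± 0.11 on the log2 scale in WT, adjusted p = 7.95e-06, and by 0.34 in HZ. Dtx3l had medians of 67.4 and 49.2 CPM in WT and 65.6 and 53.8 in HZ and fell in both, although in HZ the call was lost without any 1 of 6 animals. Parp14, an ADP-ribosyltransferase that acts in macrophage activation, was at 16.5 to 43.8 CPM in WT vehicle (median 20.8), 9.21 to 10.9 in WT WY (median 9.53), 23.1 to 58.8 in HZ vehicle (median 29.0) and 10.8 to 32.5 in HZ WY (median 13.1). The WT groups were apart, and in HZ animal 21 reached the vehicle range. Its log2 fold change was -1.25 in WT and -1.01 ± 0.24 in HZ, adjusted p = 0.000819.

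The Ifit genes, whose proteins bind viral RNA, fell together in WT. Ifit1 went from a median of 4.37 CPM to 2.09 in WT and from 5.74 to 2.43 in HZ and passed in both. Ifit2 had medians of 3.99 and 2.42 CPM in WT and 4.27 and 2.90 in HZ. Ifit3 had medians of 3.53 and 1.64 CPM in WT and 4.03 and 2.37 in HZ, and like Ifit2 it passed in WT only, with all animals. Xaf1, a partner of the apoptosis inhibitor XIAP, fell in both genotypes, with medians of 8.73 and 3.95 CPM in WT and 10.7 and 5.69 in HZ. The ubiquitin-like modifier Isg15 had medians of 2.85 and 2.21 CPM in WT, where it fell, and 3.59 and 2.82 in HZ, where it did not pass. Usp18 (3.18 and 1.67 CPM), Trim30a (4.79 and 3.86), Rtp4 (7.05 and 4.91) and Ifi44 (1.98 and 1.22), given as WT medians with vehicle and WY, likewise passed in WT only, with all animals. Their HZ medians were 3.65 and 2.51 CPM for Usp18, 6.66 and 5.10 for Trim30a, 7.29 and 5.77 for Rtp4, and 2.58 and 1.99 for Ifi44.

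Not all effectors were lower. Bst2 was at 62.2 to 117.7 CPM in WT vehicle (median 74.9), 83.9 to 127.2 in WT WY (median 100.4), 65.0 to 109.9 in HZ vehicle (median 78.1) and 88.2 to 119.7 in HZ WY (median 96.5). The groups overlapped in both genotypes. Bst2 rose by 0.32 ± 0.13 on the log2 scale in WT, adjusted p = 0.0317, and its value in HZ was 0.27 with adjusted p = 0.0673. The WT call was lost without any 1 of 5 animals, with adjusted p up to 0.0907. Ifi35, a small leucine zipper protein, had medians between 22 and 24.2 CPM in all 4 groups and passed nowhere. Oasl2, an oligoadenylate synthetase-like protein, had medians of 2.17 and 2.20 CPM in WT and of 2.88 and 2.04 in HZ and did not pass.

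Among the GTPases induced by interferon gamma, Irgm1 had the smallest p in WT. Irgm1 guards host membranes against the other immunity-related GTPases. It was at 36.9 to 89.2 CPM in WT vehicle (median 39.0), 23.7 to 26.2 in WT WY (median 24.3), 38.3 to 54.7 in HZ vehicle (median 47.0) and 24.4 to 43.3 in HZ WY (median 27.8). The WT groups did not overlap, and in HZ animal 21 alone reached the vehicle range. Irgm1 fell by 0.90 ± 0.16 on the log2 scale in WT, adjusted p = 2.22e-05, and by 0.63 in HZ. Ifi47, another immunity-related GTPase, was at 6.54 to 9.29 CPM in WT vehicle (median 7.44), 2.63 to 5.42 in WT WY (median 3.89), 8.57 to 23.4 in HZ vehicle (median 9.55) and 4.31 to 10.4 in HZ WY (median 5.64). Again the WT groups were apart, and animal 76 was not the highest WT vehicle animal for this gene. Ifi47 fell by 1.01 in WT and by 0.97 ± 0.20 in HZ, adjusted p = 0.000156.

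Gbp7, a guanylate-binding protein, was at 8.95 to 20.5 CPM in WT vehicle (median 12.8), 4.35 to 6.19 in WT WY (median 5.32), 12.3 to 23.4 in HZ vehicle (median 15.9) and 5.03 to 19.3 in HZ WY (median 7.20). Only animal 21 of HZ WY reached into the vehicle range. Gbp7 was 2.46-fold lower with WY in WT and 1.89-fold lower in HZ, and passed in both. Gbp6 fell in both genotypes as well, with medians of 2.11 and 0.847 CPM in WT and 2.66 and 1.199 in HZ. In HZ the Gbp6 call was lost without animal 38 (adjusted p = 0.0529). Iigp1, the most abundant GTPase, was at 312.6 to 553 CPM in WT vehicle (median 351.5), 250.9 to 349 in WT WY (median 289.8), 320.4 to 475 in HZ vehicle (median 389) and 281.7 to 350.1 in HZ WY (median 342.8). The groups overlapped, and Iigp1 fell by 0.37 in WT, with -0.22 and adjusted p = 0.0771 in HZ.

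The remaining GTPases gave less stable calls. Irgm2 had medians of 20.0 and 15.5 CPM in WT and 26.8 and 17.9 in HZ, and Gbp3 of 2.76 and 1.97 in WT and 4.47 and 2.01 in HZ. With all animals both passed in WT and not in HZ. In WT the call was lost without any 1 of 3 animals for Irgm2 and any 1 of 9 for Gbp3, and without HZ WY animal 21 both passed as lower in HZ. Igtp (25.1 and 22.8 CPM in WT, 27.6 and 26.6 in HZ) and Gbp2 (2.68 and 1.83 in WT, 2.20 and 2.11 in HZ) passed in neither genotype. Tgtp1, not tested, had medians of 0.228, 0.0653, 0.153 and 0.147 CPM in WT vehicle, WT WY, HZ vehicle and HZ WY, and its highest count was in animal 38. Irf1, the transcription factor through which interferon gamma reaches many targets, was at 16.6 to 32.1 CPM in WT vehicle (median 23.7), 12.9 to 21.0 in WT WY (median 14.5), 19.1 to 37.4 in HZ vehicle (median 23.1) and 18.6 to 28.3 in HZ WY (median 20.5). It fell by 0.59 in WT, where animal 31 and not animal 76 was highest, and did not pass in HZ. Cxcl10 had medians of 1.15 and 0.791 CPM in WT and 1.07 and 1.14 in HZ and did not pass.

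**Figure D4:**
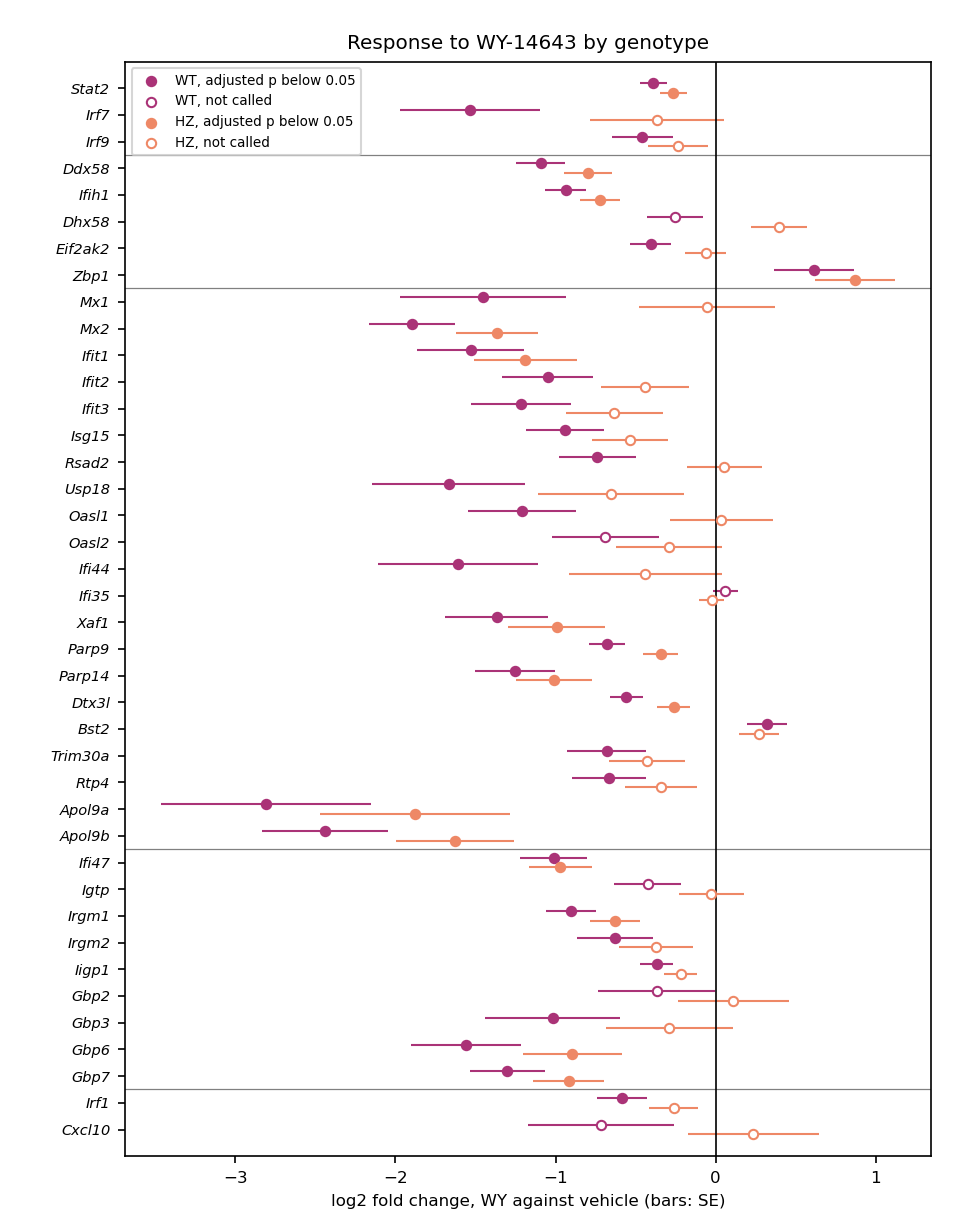
Log2 fold change of WY against vehicle ± SE for the 40 tested members in WT and HZ, by role from transcription factors (top) to Irf1 and Cxcl10 (bottom), with filled points at adjusted p below 0.05. In WT 34 points are filled and in HZ 16, and 38 of 40 HZ points lie to the right of the WT point.

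In HZ liver fewer members passed. With WY, 15 of 40 fell, 1 rose (Zbp1) and 24 did not pass, while 55.7% of all genes were called, 26.4% lower and 29.3% higher. Unadjusted p was below 0.05 for 21 of 40 members and 59.8% of all genes. In log2 fold change the members had a median of -0.35, and all genes tested 0.01. In 3 members (Ddx58, Mx2 and Apol9b) all WY animals lay below all vehicle animals, as they did in 9.89% of all genes. Of the type I members 11 of 29 fell, and of the GTPases 4 of 9. All 15 members that fell in HZ had also fallen in WT, which is 46.9% of the 32 and 100% of the 15. As 32 of 40 members fell in WT, a large overlap is likely in any case. The count of members that fell in HZ moved with the highest animals. Without animal 21 alone, 20 of 40 members fell in HZ, while 56.4% of all genes were called, 29.6% as higher. Without animals 76, 38 and 21, 25 of 39 members fell and 3 rose (Bst2, Dhx58 and Zbp1), with a median of -0.52. In that fit 25.7% of all genes fell in HZ, and the members that fell numbered 28 in WT, 25 in HZ and 22 in both. For neither overlap is the share over all genes given.

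Whether the response itself differed between genotypes was tested with the interaction of genotype and treatment. No member passed in edgeR, DESeq2 or limma, nor did any of the 12607 genes in edgeR. Unadjusted p was below 0.05 for 5 members and for 9.38% of all genes. In 38 of 40 members the log2 fold change in HZ was above that in WT, and the median difference was 0.38 (0.02 over all genes). Without animals 76, 38 and 21 the median difference was 0.04, and 21 of 39 were above 0. Oasl1, an oligoadenylate synthetase-like protein that limits production of IRF7, had the smallest p. It was at 2.32 to 15.1 CPM in WT vehicle (median 3.10), 1.73 to 2.86 in WT WY (median 1.94), 2.01 to 5.18 in HZ vehicle (median 3.77) and 2.62 to 4.56 in HZ WY (median 3.79). WT WY had the lowest values, with 1 animal (animal 10, 2.86 CPM) inside the ranges of the other 3 groups. The difference was 1.24 ± 0.47, adjusted p = 0.432, and 0.58 without animal 76. Rsad2, the antiviral enzyme viperin, was at 3.95 to 12.0 CPM in WT vehicle (median 5.68), 2.37 to 6.67 in WT WY (median 3.56), 3.67 to 6.83 in HZ vehicle (median 5.49) and 3.71 to 9.86 in HZ WY (median 5.26). All 4 groups overlapped. The difference was 0.79 ± 0.34 for Rsad2 (adjusted p = 0.488), 0.65 ± 0.25 for Dhx58 (adjusted p = 0.435) and 0.34 ± 0.16 for Parp9 (adjusted p = 0.515), each nearer 0 without animal 76.

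Genotypes were then compared within each treatment. Under vehicle no member passed in edgeR, against 2.07% of all genes (0.301% higher and 1.77% lower in HZ). In 2 members, against 17.9% of all genes, unadjusted p was below 0.05. No member had groups that did not overlap, against 0.0397% of all genes with all HZ animals higher and 0.23% with all lower. DESeq2 and limma called none either. The median log2 difference, HZ against WT, was 0.04, with 23 of 40 above 0. As differences of group medians it was 0.18, with 9 of 40 below 0, and without animal 76 the fit gave 0.31. Ifi47 had the smallest p, with 0.60 ± 0.20 and adjusted p = 0.103, which was 0.34 without animal 38 and passed without HZ vehicle animal 71. Parp14 (0.54 ± 0.24, adjusted p = 0.223), Gbp7 (0.36 ± 0.22, adjusted p = 0.402) and Dhx58 (-0.26 ± 0.18, adjusted p = 0.454) followed, and Dhx58 changed sign to 0.02 without animal 76.

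Under WY the members lay higher in HZ than in WT without passing the threshold. Again 0 of 40 passed in edgeR, against 3.16% of all genes, with 1.42% higher and 1.74% lower in HZ. Unadjusted p was below 0.05 in 16 of 40 members and in 24.1% of all genes. The median log2 difference was 0.46 (0.01 over all genes), and 38 of 40 were above 0. It was 0.31 without animal 21, and 0.31 as a difference of group medians, where 3 of 40 were below 0. Without the 5 HZ animals 30, 38, 14, 15 and 21 it was 0.20. Of these, animals 21, 15 and 14 had the highest means over all members in HZ WY (3.85, 3.14 and 3.09 log2 CPM). Leaving them out therefore lowers this difference by construction, as does leaving out animal 21 alone. In Parp9 and Xaf1 all 7 HZ animals lay above all 7 WT animals, as they did in 0.452% of all genes. Ddx58 had the smallest p, with 0.49 ± 0.15 and adjusted p = 0.0639. Next came Gbp7 (0.74 ± 0.24, adjusted p = 0.0687), Parp14 (0.78 ± 0.25, adjusted p = 0.0689) and Ifi47 (0.64 ± 0.21, adjusted p = 0.0743). The calls depended on the method. DESeq2 called 5 members higher (Ddx58, Gbp6, Gbp7, Ifi47 and Parp14), against 3.16% of all genes. Limma with quality weights called Ddx58 and Irf1, against 3.05%. An edgeR fit of the WY groups alone called 8, against 2% of all genes, namely Apol9a, Apol9b, Ddx58, Dhx58, Irf1, Oasl1, Parp9 and Xaf1. Without HZ WY animal 2, Ddx58, Gbp6, Gbp7 and Parp14 passed, against 3.49% of all genes. Without animals 76, 38 and 21, Oasl1 and Parp14 did, against 0.62%.

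Markers of Kupffer cells, dendritic cells, and neutrophils and monocytes lay in the same direction under WY. None of the 12 Kupffer cell and macrophage markers and none of the 6 tested dendritic cell markers passed, and their median log2 differences were 0.60 and 0.83. The 5 tested neutrophil and monocyte markers did not pass either, with a median of 1.56, and 7 such markers summed to a median of 4.73 CPM in WT WY and 8.33 in HZ WY. Summed Kupffer markers were at 308 to 470 CPM in WT WY (median 393) and 350 to 943 in HZ WY (median 489). Summed dendritic markers were at 31.6 to 56.3 CPM (median 52.0) and 36.5 to 329 (median 94.0). Both of these ranges overlapped between the genotypes, as did that of neutrophil and monocyte markers (3.86 to 5.87 CPM and 5.01 to 24.8). Under vehicle no marker of these lists passed either, and their medians were 0.37 (Kupffer), 0.52 (dendritic) and 0.80 (neutrophil and monocyte). The members' median under vehicle was 0.04 as fitted and 0.18 by group medians. In the fit without the animals that stood apart, the medians under WY were 0.48, 0.37 and 0.925 in that order. The tested B and plasma cell markers had a median of 0.07 under WY with all animals and -0.115 in that fit. The part of these markers in the members' difference was not tested.

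**Figure D5:**
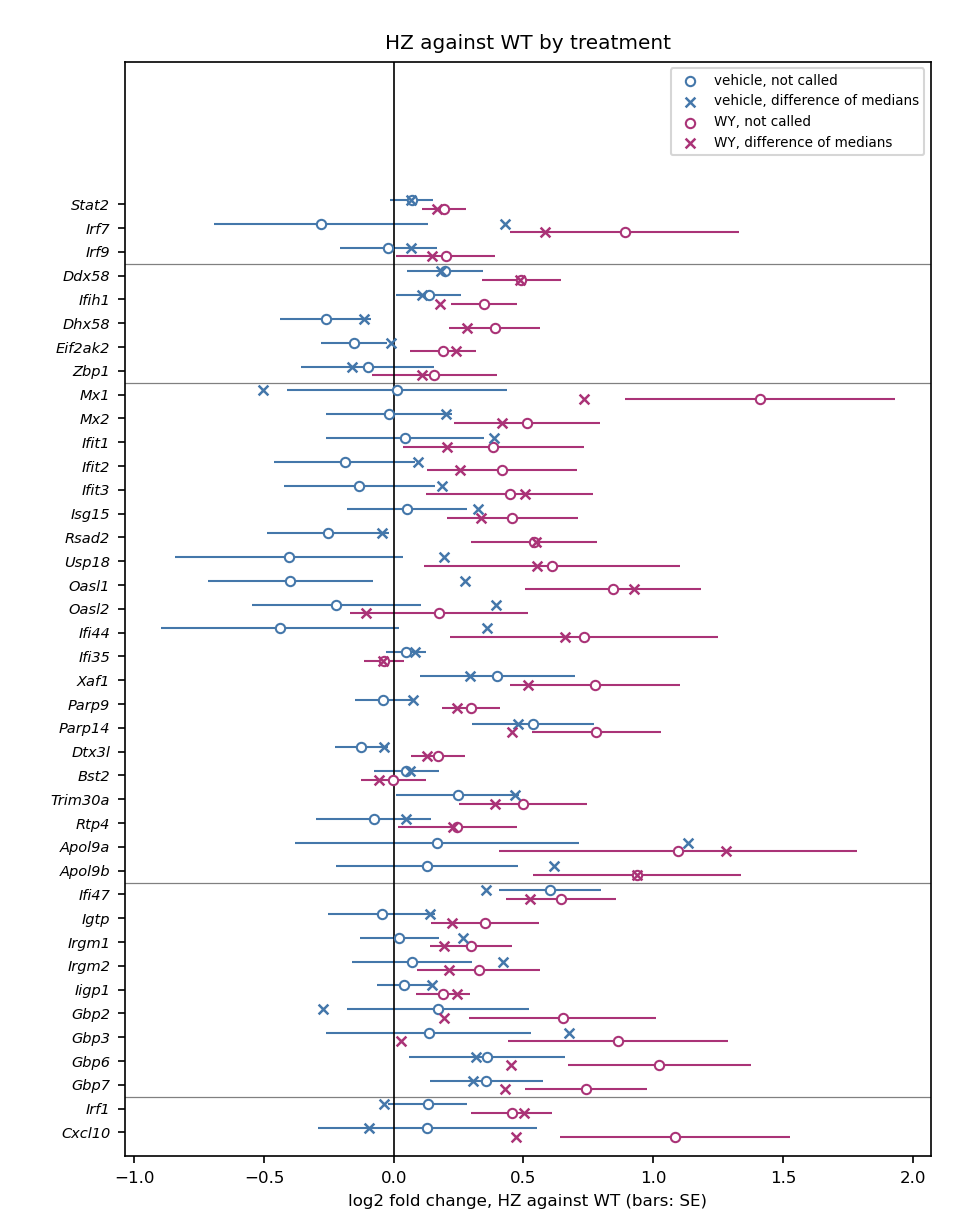
Log2 difference of HZ against WT under vehicle and under WY for the 40 tested members, as fitted values ± SE (circles, all open because none passed) and as differences of group medians (crosses). Fitted values under WY are above 0 in 38 members, and under vehicle in 23.

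The type I members and the GTPases were set side by side, as fitted medians and as medians of the differences between group medians. For WY in WT these were -0.94 and -0.65 in type I members, and -0.90 and -0.53 in GTPases. For WY in HZ they were -0.37 and -0.36 in type I members, and -0.37 and -0.75 in GTPases. Animals 38 and 21 had the highest GTPase means of their groups (4.65 and 4.51 log2 CPM, with the next at 4.22 and 3.59). For HZ against WT under vehicle they were -0.02 and 0.18 in type I members, and 0.14 and 0.30 in GTPases. For HZ against WT under WY they were 0.45 and 0.34 in type I members, and 0.64 and 0.22 in GTPases. The interaction, which has a fitted median only, gave 0.38 in both sets. Under WY the GTPases were the higher set in the fit and the lower set by medians. Without animals 76, 38 and 21 the fitted medians there were 0.26 in type I members and 0.23 in GTPases, and the difference between the sets was not tested.

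Other genes of the pathway were read from lists beside the members. Of 10 interferon genes none reached the filter, and their summed level was at most 0.288 CPM, in animal 21. Ifnb1 had 1 read in 1 library and Ifng 1 read in each of 2. Several interferon alpha genes are near copies, so their reads are easily lost. Of 10 tested receptors, kinases and STATs, 4 fell in WT: Jak1 (-0.45), Jak2 (-0.69), Tyk2 (-0.28) and Stat3 (-0.85), on the log2 scale. The first 3 are the kinases bound to the interferon receptors. The same 4 fell in HZ (Jak1 -0.41, Jak2 -0.70, Tyk2 -0.28, Stat3 -0.96), where Ifngr2, a chain of the interferon gamma receptor, rose by 0.36. The share of this list that was called lay below that of all genes, 54.1% in WT and 55.7% in HZ. Over all genes 26.7% fell in WT and 26.4% in HZ. Jak2 was at 25.7 to 29.5 CPM in WT vehicle and at 16.2 to 18.5 in WT WY. The groups did not overlap, as in 12.1% of all genes.

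Genes that start interferon transcription moved in both directions. Of 13 tested, 3 rose and 4 fell in WT, and 5 rose and 3 fell in HZ, shares near the 54.1% and 55.7% of all genes called. Irf3, the factor activated by RNA and DNA sensors, rose by 0.49 in WT and 0.60 in HZ, and the adaptor Myd88 by 0.74 and 0.80. The receptors Tlr4 and Tlr7 fell in WT by 0.76 and 1.11. Of 10 negative regulators 2 rose and 2 fell in WT, and 2 rose and 3 fell in HZ, again smaller shares called than over all genes. Irf2, a repressor that competes with IRF1, fell by 1.11 in WT and 1.04 in HZ, and the phosphatase Ptpn6 rose by 0.61 and 0.94. Samhd1, a dNTP hydrolase that restricts viruses, was higher in HZ than in WT under WY (0.44), 1 of 10 on that list.

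Further interferon-stimulated genes gave smaller counts. Of 28 tested type I genes 14 fell and 1 rose in WT, and 7 fell and 2 rose in HZ, with medians of -0.67 and -0.26. Over all genes 26.7% fell in WT and 26.4% in HZ, so the HZ count is near that share. Ddx60 (-1.82), Cmpk2 (-0.997) and Samd9l (-1.31) were among those that fell in WT. Without animals 76, 38 and 21, 11 of 28 fell in WT and 11 of 28 in HZ, and the overlap of these calls was not counted. In that fit 26.9% of all genes fell in WT and 25.7% in HZ. Tor3a, a torsin-family ATPase, rose by 1.44 in WT and 2.68 in HZ and was lower in HZ than in WT under vehicle (-1.11). Of 19 further genes induced by interferon gamma, 3 fell in WT (Gbp10 -2.03, Gbp9 -0.86 and Serping1 -0.36), a smaller share than the 26.7% of all genes. Without the 3 animals 6 of 18 fell in WT, against 26.9% of all genes. In HZ 4 of 19 fell, against 26.4% of all genes, and 1 rose (Cxcl11, 0.75). Psmb9, an immunoproteasome subunit, was higher in HZ than in WT under vehicle, by 0.68.

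Members were also split by whether the promoter window held the ISRE core. In WT, 15 of 19 tested members with the core fell (median log2 fold change -0.90), and 9 of 11 without it fell (median -1.01). In HZ the counts were 8 of 19 and 3 of 11, with medians of -0.43 and -0.29. No match says only that these letters are not in the window of 300 bases.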

How the data were processed

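RNA-seq of 28 livers was read from 2 deposited tables of counts. Per the submitters' processing notes, the tools were STAR 2.5.0a, HTSeq 0.6.1p1 and DESeq2 1.18.1, with genome mm10. The annotation and the use of strand are not stated there. The deposited values are raw counts per gene symbol, as the file columns show, without normalization by the authors. HTSeq summary rows and gene names turned into dates (25 rows in the vehicle and 27 in the WY table) were left out. The HTSeq summary row for alignments that are not unique made up 35.8 to 42.6% of all counts of a library, summary rows included. This is a share of counted entries and may differ from the share of reads. Near copies may be undercounted, which was not tested.

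The members and lists were chosen with earlier results of these data known. Every member is named with its level. Full statistics go to the 6 members of smallest p per direction where any passed, otherwise to 4. Values in every group go to these and to the most abundant member of each role. Pathway genes are named up to 4 per list among those that passed.

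In R 4.3.3, edgeR 4.0.16 (filterByExpr, TMM, robust quasi-likelihood, 24 residual degrees of freedom) was fitted to all 28 libraries with a mean per group. Benjamini-Hochberg adjustment ran over all 12607 genes, with the threshold at 0.05. Log2 CPM used a prior count of 2. The labels give each animal a number that no other group repeats, and whether littermates are among the animals is not given. The fit was tested on simulated data. DESeq2 1.42.0, limma 3.58.1 (voom with quality weights), other filters, fewer samples, a number-range term, group medians and exact permutation tests were alternatives. Positions are from GENCODE M21 on GRCm38. Depth limits genes near the filter, such as Mx1. The edgeR p-values set a difference of group means against the spread between animals, estimated jointly over the 4 groups and moderated across genes.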

Additional observations from a re-analysis of the deposited data

Results flagged for a closer look

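In groups of 7, a highest or lowest animal was noted where its gap to the nearest other animal exceeded 0.568 of the group's whole range. Of 176 groups examined, 34 had such an animal, and chance gives about 1 in 20. The members rise and fall together within an animal, so these are not independent.

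WT vehicle animal 76 accounted for 22 of the 34. It was highest, in CPM, for Stat2 (85.4), Irf7 (66.7), Irf9 (59.1), Ifih1 (62.7), Eif2ak2 (53.6), Ifit1 (16.9), Ifit2 (13.2), Usp18 (23.8), Oasl1 (15.1), Oasl2 (9.40), Parp9 (100.4), Parp14 (43.8) and Rtp4 (18.9). Among the GTPases it was highest for Igtp (62.6), Irgm1 (89.2), Irgm2 (55.5), Iigp1 (553), Gbp3 (11.1) and Gbp6 (5.03). Its mean log2 CPM stood apart over all members (4.60), over the type I members (4.69) and over the GTPases (4.70).

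HZ WY animal 21 accounted for 8. It was highest for Parp9 (60.2 CPM), Ifi47 (10.4), Igtp (45.8), Gbp7 (19.3) and Cxcl10 (5.48). Its mean log2 CPM stood apart over all members (3.85), over the type I members (3.66) and over the GTPases (4.51).

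The other 4 were HZ vehicle animal 38, highest for Ifi47 (23.4 CPM), WT WY animal 10, lowest for Ifih1 (17.8) and highest for Oasl1 (2.86), and WT WY animal 25, highest for Trim30a (5.20).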

How the results depend on the processing

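Percentages here are the shares of all genes called in the same fit, in either direction. For WY in WT, 34 members passed with all animals, against 54.1%. The count was 22 with a filter at a mean of at least 5 CPM, which leaves 25 members to test, against 63.9%. It was 21 with a term for animals numbered 71 to 78, against 51.2%. Leaving out 1 animal gave 27 to 33, lowest without WT vehicle animal 76, against 51.3 to 53.3%. For WY in HZ, 16 passed with all animals (55.7%) and 28 without animals 76, 38 and 21 (54%). Leaving out 1 animal gave 15 to 21, highest without HZ WY animal 21, against 52.6 to 56.4%. For HZ against WT under vehicle 0 passed (2.07%), and leaving out 1 animal gave 0 to 1 (0.34 to 5.13%). Under WY 0 passed in edgeR (3.16%), 5 in DESeq2 (8.91%) and 2 in limma (7.68%). There 8 passed with only the groups compared (3.97%) and 2 without animals 76, 38 and 21 (1.27%). Leaving out 1 animal there gave 0 to 4 (0.584 to 7.71%). The interaction gave 0 in every fit run for it, which does not include the fit of only the groups compared, since it needs all 4. The cause of these shifts was not tested, other than the smaller number of genes under the stricter filter. Dhx58, HZ against WT under vehicle, changed sign from -0.26 to 0.0179 without animal 76 (the range over animals left out was -0.3604 to 0.0179) and to 0.0402 without the 3 animals. The fit without animals 76, 38 and 21 was chosen after seeing the data, and since they are the highest of their groups it narrows the spread by construction. No paired analysis was possible because the groups share no animal numbers. Genes at a few counts per library, such as Mx1 and Tgtp1, are limited by depth.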
